A study of Homo sapiens with 6 samples.

Results

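The RAB genes encode small GTPases that mark membranes, and RABIF, also known as MSS4, encodes a small zinc-binding chaperone of nucleotide-free RAB proteins. They were followed in T24, an established human bladder cancer line, with or without a lentiviral short hairpin RNA against BLACAT3, a long noncoding RNA. Members were taken by name, as every row whose symbol was RAB followed by a number with at most 1 letter and 1 further digit, plus RABIF. This gave 49 of the 11081 gene rows, 48 RAB genes and RABIF. Of these, 44 had a mean of at least 1 FPKM (fragments scaled by transcript length and library total) over the libraries and were tested, and 5 lay below that level. The groups were 3 libraries of cells with a control hairpin (shControl, labelled wild type) and 3 of cells with the BLACAT3 hairpin (shBLACAT3, labelled as the knockdown). Both groups were infected with lentivirus and kept under puromycin until stable, so both carry a vector. The labels name a single BLACAT3 hairpin and do not say whether the cells were pools or clones, or whether replicates were separate cultures. The p-values therefore rest on the spread from library to library alone, and that spread may be technical. BLACAT3 itself was not analysed here, so its level was not used to check the labels.

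A RAB protein switches between a GDP-bound form held in the cytosol and a GTP-bound form on a membrane, where it recruits tethers, motors and coats. Exchange factors (GEFs) load GTP, GTPase-activating proteins of the TBC family (GAPs) end the active state, and GDI and REP escort the lipid-modified protein through the cytosol. RABIF binds a subset of exocytic RAB proteins in their nucleotide-free state and keeps them from being degraded, with RAB10 as its best known client. The comparison asks which of these genes differ in RNA level when BLACAT3 is knocked down.

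RABIF was 2.21 times higher in shBLACAT3 cells, and 3 RAB genes were lower: RAB6B of the Golgi, RAB20 of endosomes and phagosomes, and RAB27B of secretory vesicles, at 0.521, 0.483 and 0.557 times their control means. No RAB gene passed as higher. These 4 calls among 44 tested members (9.09%) stand beside 9.37% of all 10008 tested genes, so the share called among the members lies near the background. By direction, 1 member was higher, where 2.57% of all genes were, and 3 were lower, where 6.80% were. A gene was called at an adjusted p under 0.05 in limma on log2(FPKM + 1), with Benjamini-Hochberg adjustment over all 10008 genes. The rise of RABIF was known from an earlier analysis of these libraries when the members were chosen, so its test here is no independent support.

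**Figure D1:**
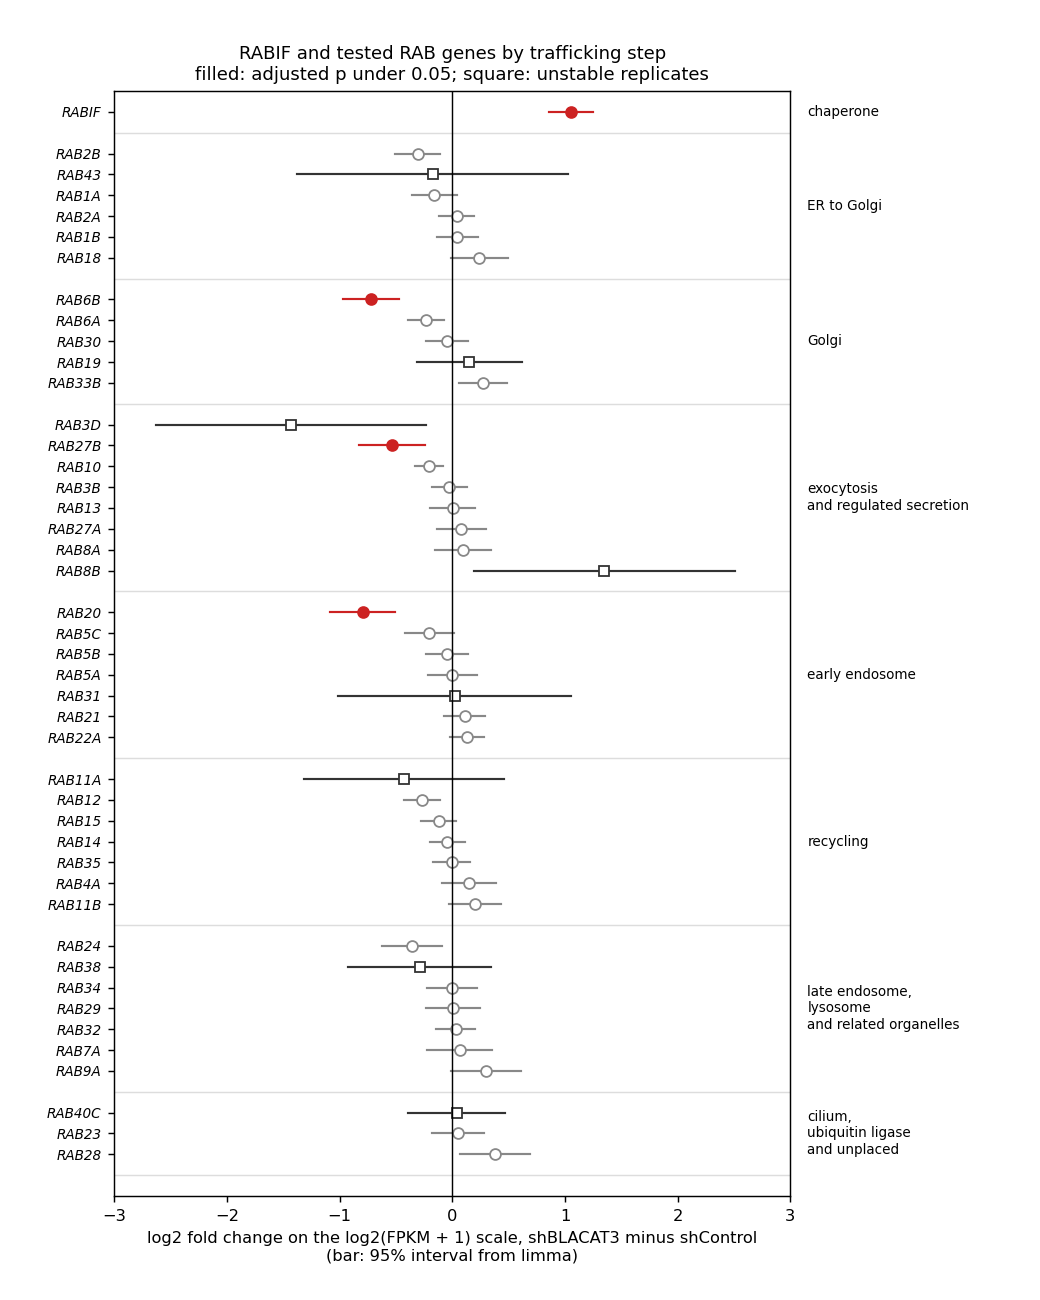
Log2 fold change of the 44 tested members, shBLACAT3 minus shControl, on the log2(FPKM + 1) scale, grouped by trafficking step, with 95% intervals from limma. RABIF at 1.05 and RAB20, RAB6B and RAB27B at -0.80, -0.72 and -0.54 are filled (adjusted p under 0.05), and the squares, with unstable replicates, have wide intervals.

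The sequence before the start of each called gene is shown because RABIF moved opposite to the called RAB genes. RefSeq windows on GRCh38.p14, from 250 bases before to 50 bases after an annotated start, were matched by symbol for 41 of the 49 members and for 3 of the 4 called ones. RAB20 had no window among them. Capitals mark GGGCGG, the GC box bound by factors of the SP family, on either strand (it then reads CCGCCC), and TGCGCA, the core of the site bound by NRF1, which reads the same on both strands. The marks do not overlap. The RABIF window lies on the minus strand at chr1:202889100-202889399, that of RAB6B on the minus strand at chr3:133895833-133896132, and that of RAB27B on the plus strand at chr18:54717607-54717906.
RABIF: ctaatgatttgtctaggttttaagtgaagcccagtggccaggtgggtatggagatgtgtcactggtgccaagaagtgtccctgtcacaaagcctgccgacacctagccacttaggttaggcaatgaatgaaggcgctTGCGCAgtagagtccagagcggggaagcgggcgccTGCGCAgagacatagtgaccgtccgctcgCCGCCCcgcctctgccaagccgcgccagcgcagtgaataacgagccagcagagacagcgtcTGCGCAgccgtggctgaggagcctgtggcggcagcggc
RAB6B: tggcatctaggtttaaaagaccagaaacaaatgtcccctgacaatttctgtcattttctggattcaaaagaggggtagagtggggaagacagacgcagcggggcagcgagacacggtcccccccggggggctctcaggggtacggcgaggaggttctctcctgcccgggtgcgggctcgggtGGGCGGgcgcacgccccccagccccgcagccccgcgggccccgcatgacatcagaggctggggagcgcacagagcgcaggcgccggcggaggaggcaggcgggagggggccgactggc
RAB27B: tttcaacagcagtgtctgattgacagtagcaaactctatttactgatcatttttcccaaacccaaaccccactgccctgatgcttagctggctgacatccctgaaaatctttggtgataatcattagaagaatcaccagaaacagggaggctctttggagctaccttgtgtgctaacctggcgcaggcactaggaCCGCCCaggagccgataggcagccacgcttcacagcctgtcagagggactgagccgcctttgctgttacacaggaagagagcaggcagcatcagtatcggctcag
The RABIF window holds 3 matches of TGCGCA and 1 GC box. At least 1 TGCGCA was found in 8.2% of all 35116 windows and at least 3 in 0.17%, and of the 61 windows of members 9 had at least 1 and only that of RABIF had 3. TGCGCA was chosen for the search after the RABIF window had been read, so its number there is a description. The RAB6B and RAB27B windows shown hold no TGCGCA and 1 GC box each. At least 1 GC box was found in 45.0% of all windows and in 50 of the 61 windows of members. The second annotated windows of these genes hold no TGCGCA, and 2 GC boxes for RAB6B and 1 for RAB27B. The CCAAT box (the letters CCAAT), held by 34.6% of all windows, was found in no window of the 3 genes on either strand. The TATA box, searched as TATAAA and held by 11.5% of all windows, was also found in none of them. The same was true of the E-box, searched as CACGTG and held by 7.3%.

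RABIF stood at 7.36, 8.33 and 7.81 FPKM in shControl replicates 1, 2 and 3 and at 16.2, 17.0 and 18.8 FPKM in the shBLACAT3 replicates. Every shBLACAT3 library was above every shControl library, and the groups lay far apart. The means were 7.83 ± 0.48 and 17.3 ± 1.34 FPKM (SD, n = 3 per group), with a log2 fold change of 1.05 (SE 0.08, limma adjusted p 0.00074). RABIF passed in every other fit that was run, with fold changes from 0.99 without shBLACAT3 replicate 3 to 1.13 with a pseudocount of 0.1, and adjusted p from 0.00066 to 0.0088. In bulk RNA a change in the number of cells that express a gene and a change in RNA per cell cannot be told apart.

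**Figure D2:**
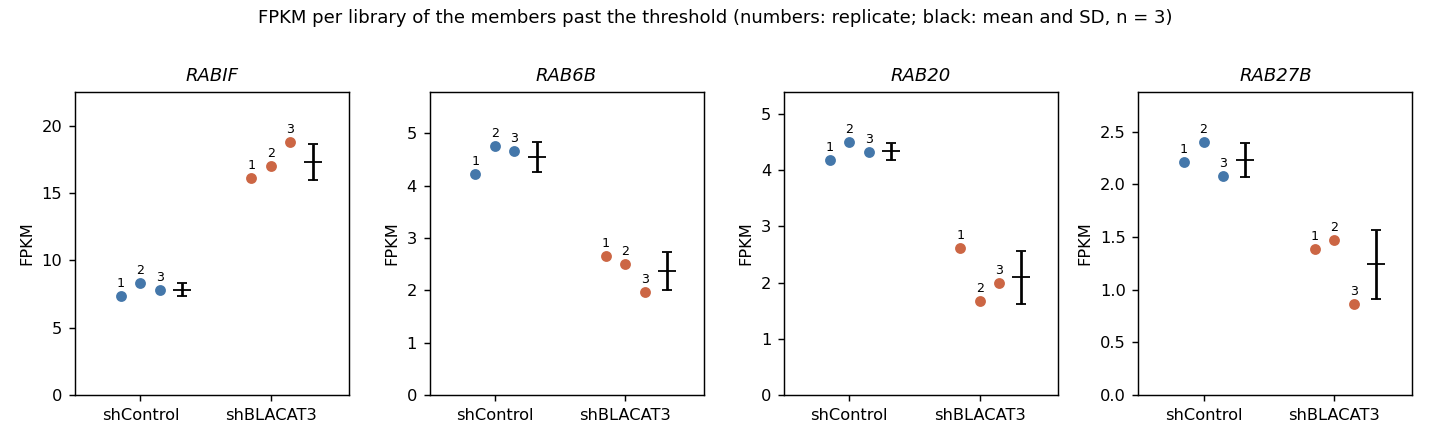
FPKM in each library of RABIF, RAB6B, RAB20 and RAB27B, with the mean and SD of each group (n = 3) in black and replicate numbers beside the points. No shControl and shBLACAT3 library overlap in any panel, with RABIF higher in shBLACAT3 cells and the other genes lower.

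RAB proteins described as partners of RABIF come from the exocytic and early secretory branches: RAB1A, RAB1B, RAB3A, RAB3B, RAB3C, RAB3D, RAB8A, RAB8B, RAB10 and RAB13. Of these 10 genes, 9 had a row, 8 were tested and none was called in limma, while 3 had an unadjusted p under 0.05, as had 25.7% of all tested genes. Their median log2 fold change was -0.01, beside -0.0025 for all tested genes. RAB10, which brings GLUT4 and other cargo to the plasma membrane, stood at 66.5, 61.9 and 64.4 FPKM in shControl and at 55.5, 54.8 and 55.8 FPKM in shBLACAT3 libraries. The groups did not overlap, and the log2 fold change of -0.21 (95% interval -0.34 to -0.09) missed the threshold at an adjusted p of 0.054 in limma. RAB10 passed in 1 other fit, with array weights, at an adjusted p of 0.045. The other 2 with an unadjusted p under 0.05 were RAB3D and RAB8B, both with unstable replicates.

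None of the 6 RAB genes of traffic from the endoplasmic reticulum to the Golgi was called. RAB1A and RAB1B tether vesicles that arrive at the Golgi, and stood at 44.1 ± 1.15 and 72.3 ± 1.35 FPKM in shControl and at 39.5 ± 4.33 and 74.7 ± 7.05 FPKM in shBLACAT3 cells (SD, n = 3). RAB2A, which acts on membranes between the endoplasmic reticulum and the Golgi, had a log2 fold change of 0.04 (95% interval -0.12 to 0.20). Its paralogue RAB2B had values of 13.1, 13.8 and 14.5 FPKM in shControl and 10.2, 10.6 and 12.1 FPKM in shBLACAT3 libraries, without overlap, and an adjusted p of 0.073 in limma. RAB2B passed with array weights (0.044) and without shBLACAT3 replicate 3 (0.031). RAB18, which works at contacts of the endoplasmic reticulum with lipid droplets, went the other way, with a log2 fold change of 0.24 (adjusted p 0.22 in limma).

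Among the Golgi members RAB6B fell. RAB6A and RAB6B direct retrograde transport from the Golgi and the movement of secretory vesicles, and RAB6B is known as the form enriched in brain. RAB6B stood at 4.22, 4.75 and 4.66 FPKM in shControl and at 2.65, 2.49 and 1.96 FPKM in shBLACAT3 libraries. All 3 shBLACAT3 values lay far below the lowest control. The log2 fold change was -0.72 (SE 0.10, limma adjusted p 0.0089), and RAB6B passed in every other fit, at an adjusted p of at most 0.045.

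RAB6A, at 40.4 ± 0.91 and 34.3 ± 2.46 FPKM (SD, n = 3), was also lower in each shBLACAT3 library than in any control, with a log2 fold change of -0.23 and an adjusted p of 0.086 in limma, so it did not pass. It passed with array weights (0.041) and without shBLACAT3 replicate 2 (0.036). FPKM is a value per length, so paralogues can be set side by side: RAB6B made up 9.57% to 10.5% of the summed RAB6A and RAB6B level in shControl and 5.65% to 7.45% in shBLACAT3 libraries. RAB33B, a Golgi RAB that also takes part in autophagosome formation, had a log2 fold change of 0.27 (adjusted p 0.12 in limma), and RAB30 one of -0.05. RAB39B and RAB6D, with means of 0.474 and 0.620 FPKM, lay below the filter. RAB39B, whose loss causes an X-linked neurodevelopmental disorder, stood at 0.812, 0.540 and 0.637 FPKM in shControl and at 0.30, 0.313 and 0.242 FPKM in shBLACAT3 libraries. It passed in limma with no filter (log2 fold change -0.37, adjusted p 0.036). RAB6D is a close copy of other RAB6 genes, so how shared fragments were assigned can affect its value.

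The branch of exocytosis and regulated secretion held 1 called gene, RAB27B, and the widest spread of fold changes, from -1.44 for RAB3D to 1.35 for RAB8B. RAB27A and RAB27B dock secretory vesicles, multivesicular bodies and lysosome-related organelles at the plasma membrane. RAB27B stood at 2.21, 2.40 and 2.08 FPKM in shControl and at 1.39, 1.47 and 0.867 FPKM in shBLACAT3 libraries, with no overlap. The log2 fold change was -0.54 (SE 0.12), and the call, at an adjusted p of 0.045 in limma, was the weakest of the 4. It was lost without shControl replicate 1 (0.14), 2 (0.14) or 3 (0.11) and without shBLACAT3 replicate 1 (0.085) or 2 (0.054). It was also lost with a pseudocount of 0.1 (0.059), with quantile normalization (0.062) and with the replicate number as a block (0.055).

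RAB27A stood at 4.98 ± 0.11 and 5.34 ± 0.60 FPKM (SD, n = 3), a log2 fold change of 0.08 (95% interval -0.14 to 0.30). RAB27B made up 29.3% to 32.1% of the summed level of these paralogues in shControl and 15.6% to 20.2% in shBLACAT3 libraries. RAB8A, which carries cargo to the plasma membrane and the cilium, and RAB13, a RAB of tight junction traffic, had log2 fold changes of 0.10 and 0.0035. RAB3B, of the family that controls regulated exocytosis, had one of -0.03 (95% interval -0.18 to 0.13). RAB3A, a synaptic vesicle RAB below the filter, stood at 1.09 ± 0.16 and 0.630 ± 0.172 FPKM (SD, n = 3).

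RAB20 was the endosomal gene that changed. It encodes a RAB of early endosomes and of the maturing phagosome. RAB20 stood at 4.19, 4.50 and 4.33 FPKM in shControl and at 2.61, 1.68 and 2.0 FPKM in shBLACAT3 libraries. The control libraries lay close together and all 3 knockdown libraries lay below them. The log2 fold change was -0.80 (SE 0.12, limma adjusted p 0.011), and RAB20 passed in every other fit, at an adjusted p of at most 0.049. The RAB5 genes, which drive fusion of early endosomes, did not pass: RAB5A stood at 29.1 FPKM in both groups, RAB5B had a log2 fold change of -0.05 and RAB5C one of -0.20 (adjusted p 0.22 in limma). RAB21, a RAB of integrin traffic, and RAB22A had log2 fold changes of 0.11 and 0.13, also without a call.

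None of the 7 tested genes of recycling was called. RAB14, at 62.6 ± 1.57 and 60.8 ± 3.87 FPKM, RAB35, at 14.0 ± 0.53 and 13.9 ± 0.82 FPKM, and RAB4A, at 7.66 ± 0.43 and 8.62 ± 1.07 FPKM (SD, n = 3), had intervals that included 0. RAB12, which sends transferrin receptor to degradation, stood at 33.1, 35.7 and 35.6 FPKM in shControl and at 26.8, 30.1 and 29.1 FPKM in shBLACAT3 libraries. The groups did not overlap, and the log2 fold change of -0.27 missed the threshold at an adjusted p of 0.055 in limma. RAB12 passed with array weights (0.033). RAB11B, a RAB of the recycling endosome, had a log2 fold change of 0.20 (95% interval -0.03 to 0.43), and RAB15 one of -0.12. RAB4B lay below the filter, at 0.798 ± 0.258 and 0.528 ± 0.221 FPKM.

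None of the 7 tested genes of late endosomes, lysosomes and related organelles was called either. RAB7A, the RAB that takes late endosomes to lysosomes, had the highest level of all members, at 126.8, 95.3 and 97.2 FPKM in shControl and 118.6, 102.6 and 110.4 FPKM in shBLACAT3 libraries. The groups overlapped, with a log2 fold change of 0.06 (95% interval -0.22 to 0.35). RAB9A, which returns mannose 6-phosphate receptors to the Golgi, had a log2 fold change of 0.30 (adjusted p 0.21 in limma) and passed without shBLACAT3 replicate 2 (0.035). RAB24, an atypical RAB linked to autophagy, had one of -0.36 (adjusted p 0.10 in limma). RAB29, RAB32 and RAB34 had log2 fold changes between -0.0017 and 0.03. Of the RABs of the cilium and of the SOCS box ligases, RAB28 stood at 8.39, 8.70 and 11.8 FPKM in shControl and at 12.0, 13.7 and 12.4 FPKM in shBLACAT3 libraries (log2 fold change 0.38, adjusted p 0.13 in limma). It passed without shControl replicate 3 (0.039). RAB23, an antagonist of Hedgehog signalling, had a log2 fold change of 0.05, and RAB40B lay below the filter at 0.822 ± 0.117 and 0.570 ± 0.301 FPKM.

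The median log2 fold change of the 43 tested RAB genes was 0.00084, and their median absolute log2 fold change was 0.15, the same as for all tested genes. In 17 of the 44 tested members (38.6%) the groups did not overlap, 6 higher and 11 lower, beside 32.8% of all tested genes. Unadjusted, 13 of the 44 had a p under 0.05, 4 higher and 9 lower, beside 25.7% of all tested genes. Of the 40 members that were not called, 29 had a 95% interval within 0.5 of 0 on the log2(FPKM + 1) scale. That is within 1.41-fold of FPKM + 1, which allows a wider change in FPKM for low genes. The summed level of all RAB genes was 889, 836 and 847 FPKM in shControl and 841, 824 and 836 FPKM in shBLACAT3 libraries.

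By level, RAB7A led with a mean of 108.5 FPKM over the 6 libraries, followed by RAB1B (73.5 FPKM), RAB14 (61.7 FPKM), RAB10 (59.8 FPKM), RAB1A (41.8 FPKM) and RAB11B (40.2 FPKM). The ranges of RAB14 and RAB10 overlapped, as did those of RAB1A and RAB11B, so their order is not fixed. RABIF, at 12.6 FPKM, lay near the middle, and the 3 RAB genes that fell lay between 1.74 and 3.46 FPKM. Over the 6 libraries, the RAB genes whose log2(FPKM + 1) followed that of RABIF most closely were RAB33B (Pearson's r 0.88), RAB22A (0.80) and RAB28 (0.78). The strongest inverse values were larger in size, at -0.97 for RAB6B and for RAB10. The libraries form the 2 groups, so these values mainly describe a shared difference between them.

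**Figure D3:**
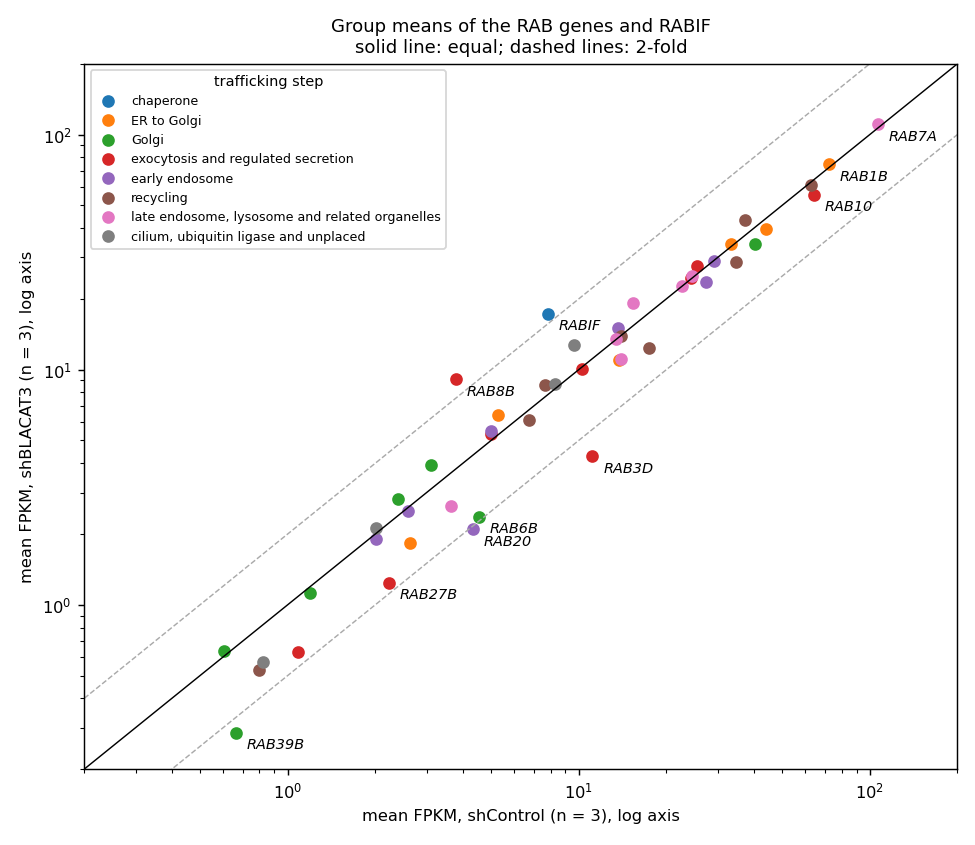
Mean FPKM of each of the 49 members in shControl (x axis) and shBLACAT3 cells (y axis, n = 3 per group), both on log axes, coloured by trafficking step. Most members lie along the line of equality, RABIF and RAB8B lie above the upper 2-fold line, and RAB3D, RAB20 and RAB39B lie below the lower one.

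Some rows were too unsteady between replicates to be read as a level of the group. A row was marked when, within a group, the highest library was at least 1.5 times the lowest on the FPKM + 1 scale. This held for 8 of the 44 tested members (18.2%), beside 14.5% of all tested genes, and none of the 8 was called. They included the members with the largest fold changes in either direction, RAB8B and RAB3D. A wide spread also raises p in limma, so the mark and the call are not independent. The FPKM + 1 scale damps the spread of low rows such as RAB20 and RAB27B, at 1.35 and 1.32 times in the shBLACAT3 group.

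RAB8B, a paralogue of RAB8A in traffic to the plasma membrane, stood at 1.26, 2.0 and 8.10 FPKM in shControl and at 9.26, 10.1 and 7.90 FPKM in shBLACAT3 libraries. Control replicate 3 lay within the knockdown range and the other controls far below it. The log2 fold change was 1.35 (95% interval 0.19 to 2.50, limma adjusted p 0.14), and without shControl replicate 3 it was 1.95 with an adjusted p of 0.0032. RAB8B made up 4.59%, 7.30% and 24.7% of the summed RAB8A and RAB8B level in shControl and 20.1% to 30.0% in shBLACAT3 libraries.

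RAB3D, a RAB of secretory granules, stood at 11.7, 10.9 and 10.7 FPKM in shControl and at 6.28, 5.72 and 0.842 FPKM in shBLACAT3 libraries. The groups did not overlap, but shBLACAT3 replicate 3 lay far below the other knockdown libraries. The log2 fold change was -1.44 (95% interval -2.64 to -0.24, limma adjusted p 0.14), and without shBLACAT3 replicate 3 it was -0.79 with an adjusted p of 0.0055. TMEM205, whose row overlaps that of RAB3D on the same strand in GENCODE 29, stood at 9.03 FPKM in that library and at 10.3 and 11.2 FPKM in the other shBLACAT3 libraries. That was the lowest TMEM205 value of the 6 libraries, and how fragments were divided between these rows was not tested.

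RAB43, a RAB of the secretory pathway, stood at 3.87, 3.67 and 0.342 FPKM in shControl and at 1.10, 2.46 and 1.92 FPKM in shBLACAT3 libraries. ISY1-RAB43, the readthrough transcript that overlaps it, was listed at 0 in replicates 1 and 2 of both groups, and at 4.61 and 4.86 FPKM in replicate 3 of shControl and of shBLACAT3. In shControl the row of RAB43 was thus low where the readthrough row was not at 0, while in shBLACAT3 cells the lowest RAB43 value was in replicate 1. How fragments were divided between these rows was not tested.

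RAB31, which links the Golgi to endosomes, stood at 1.55, 1.32 and 4.91 FPKM in shControl and at 3.89, 2.51 and 1.12 FPKM in shBLACAT3 libraries, so the groups overlapped. RAB11A, the main RAB of the recycling endosome, stood at 22.2, 9.28 and 20.8 FPKM in shControl and at 14.7, 14.7 and 7.64 FPKM in shBLACAT3 libraries. In each group 1 library lay far below the others, replicate 2 of shControl and replicate 3 of shBLACAT3. RAB38, a RAB of melanosome formation, was lowest in replicate 3 of both groups, at 16.6, 16.4 and 9.0 FPKM in shControl and at 12.0, 13.2 and 8.02 FPKM in shBLACAT3 libraries. RAB19 stood at 2.75, 1.90 and 2.51 FPKM in shControl and at 3.93, 2.03 and 2.51 FPKM in shBLACAT3 libraries. RAB40C stood at 2.36, 2.07 and 1.59 FPKM in shControl and at 1.42, 2.18 and 2.74 FPKM in shBLACAT3 libraries. RAB19 and RAB40C passed the mark only narrowly, at 1.63 and 1.54 times in the shBLACAT3 group. Of the 8 marked members 4 overlap another row of the table in GENCODE 29, as do 9 of the other 36.

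**Figure D4:**
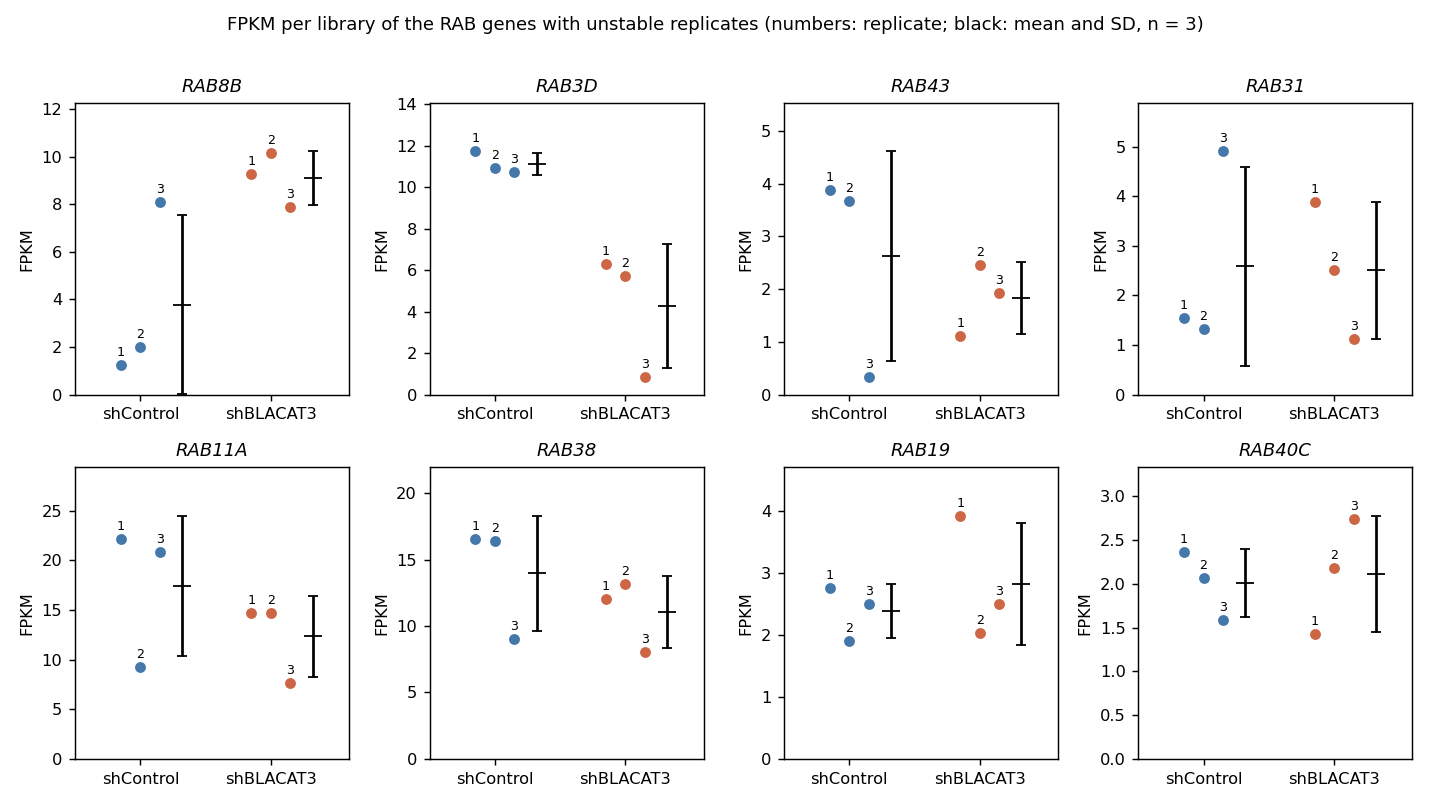
FPKM in each library of the 8 tested RAB genes marked for unstable replicates, with replicate numbers and the mean and SD of each group (n = 3) in black. In several panels 1 library stands apart from the others of its group, such as shControl replicate 3 of RAB8B at 8.10 FPKM and shBLACAT3 replicate 3 of RAB3D at 0.842 FPKM.

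Regulators and effectors of RAB proteins were followed in a list of 155 other genes, of which 132 had a row and 120 were tested. In limma 7 of the 120 (5.83%, beside 9.37% of all tested genes) were called, 2 higher and 5 lower, and the median log2 fold change was 0.02. Among 9 genes of GDI, REP and lipid attachment, RABAC1, which binds many prenylated RAB proteins, fell from 5.83 ± 0.90 to 3.22 ± 0.47 FPKM (SD, n = 3; log2 fold change -0.69, limma adjusted p 0.024). Among 31 GAPs, TBC1D2, a GAP for RAB7, fell from 12.4 ± 1.18 to 6.47 ± 0.80 FPKM and GRTP1 from 1.72 ± 0.07 to 0.598 ± 0.059 FPKM (SD, n = 3), with adjusted p of 0.0059 and 0.0016 in limma. Both passed in every other fit. TBC1D14, a regulator of autophagosome formation, rose with a log2 fold change of 0.33 (limma adjusted p 0.036).

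Among 43 tested GEFs, RIN2 and DENND5A fell, with log2 fold changes of -0.30 and -0.35 (limma adjusted p 0.046 and 0.024). RIN2 encodes an exchange factor for RAB5. None of the 37 tested effectors was called, and 5 of them had an unadjusted p under 0.05, beside 25.7% of all tested genes. Each named regulator other than TBC1D2 and GRTP1 lost its call in some fit. In limma the calls of TBC1D14, RIN2 and DENND5A were lost without any 1 shControl library, at adjusted p from 0.060 to 0.16. That of RABAC1 was lost without shControl replicate 1 (0.086) or 3 (0.088) and without shBLACAT3 replicate 1 (0.081) or 2 (0.064). Without any 1 shBLACAT3 library TBC1D14 was lost (0.059 to 0.073). Without shBLACAT3 replicate 1, RIN2 (0.13) and DENND5A (0.078) were lost, as was RIN2 without replicate 3 (0.074). With the replicate number as a block TBC1D14 (0.058), RIN2 (0.070) and DENND5A (0.052) were lost, with median scaling TBC1D14 (0.055) and RIN2 (0.057), and with no mean-variance trend RIN2 (0.059).

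**Figure D5:**
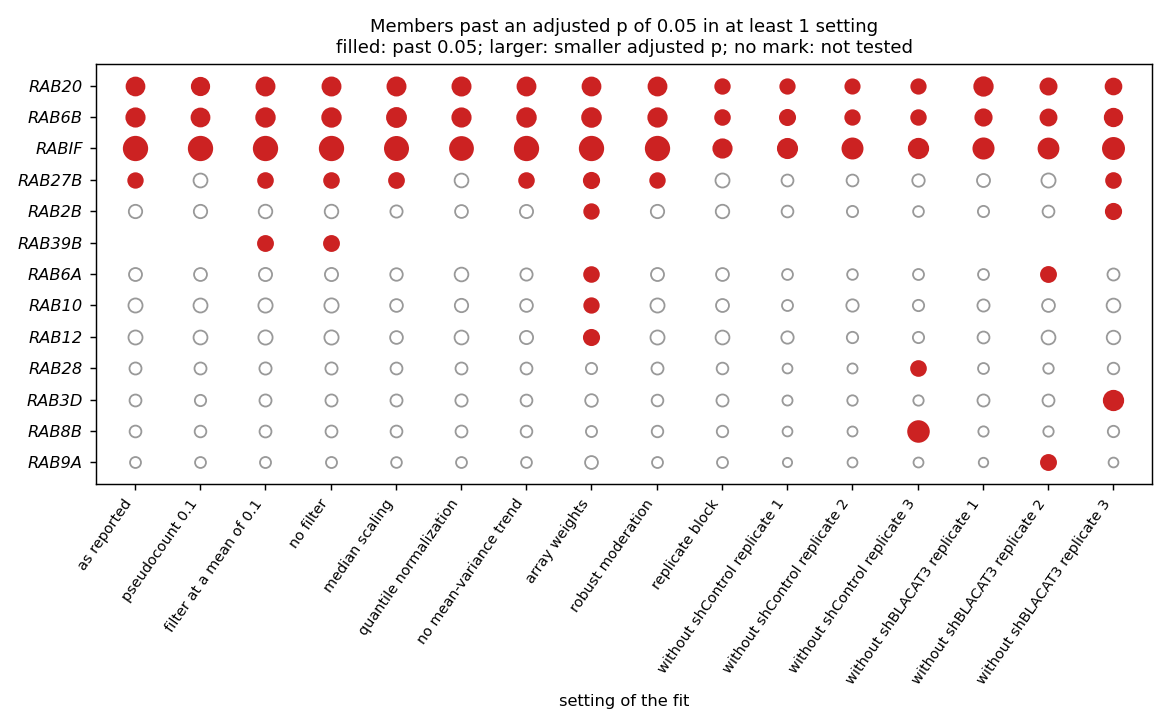
Adjusted p in limma of the 13 members that passed 0.05 in at least 1 of 16 fits (columns: the fit as reported, other settings, and each library left out), with filled marks for a pass and larger marks for smaller p. RABIF, RAB6B and RAB20 are filled in all 16 columns and RAB27B in 8, while RAB3D and RAB8B are filled in a single column each.

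Columns of the table summed to between 211958 and 226953 FPKM, and the read depth behind them is unknown, since FPKM holds no counts. Of the epithelial markers, KRT7, KRT8 and KRT18 were expressed at 26.0, 41.4 and 93.1 FPKM on average over the 6 libraries, and KRT8 and KRT18 fell in shBLACAT3 cells (log2 fold changes -1.42 and -0.58). KRT7 had means of 20.0 and 31.98 FPKM in shControl and shBLACAT3 cells, without overlap, and did not pass (log2 fold change 0.69, limma adjusted p 0.097). Groups did not overlap in 32.8% of all tested genes. KRT7 met the mark for unstable replicates, at 24.2, 22.2 and 13.6 FPKM in the shControl libraries. KRT19 and the 7 leukocyte and endothelial markers had no row, so their levels were not analysed here. The part of these changes in the RAB results was not tested.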

How the data were processed

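RNA-seq was made from total RNA of 6 T24 libraries with a strand-aware kit, per the labels' protocols. The submitters' processing notes name cutadapt, HISAT2 2.1.0 and StringTie. Genome build, annotation, strand setting and filters: not given in the sources used here. Column headers of the single deposited table name no unit, and its values were read as FPKM, as StringTie reports them, from the values and the tools per the labels. Columns headed NC were read as shControl and SH as shBLACAT3, with the number as the replicate.

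Identifiers, without their version, gave a symbol for 10930 of 11081 rows through a table of gene names and GENCODE 29. Since 10981 of them have the form of releases mapped to another build, no coordinates of these rows are given. Rows that share a symbol were added up. The fit used limma 3.58.1 under R 4.3.3 on log2(FPKM + 1) of the 10008 genes whose mean reached 1 FPKM. Group was its sole term, the prior variance followed a trend on the mean, tests were two-sided, and all 10008 p-values were adjusted after Benjamini and Hochberg. Fold changes on this scale understate those of low genes. In all rows the higher group mean was at least 0.5008, so a gene lower than this in shControl and shBLACAT3 alike was not analysed here. The test was checked on simulated data.

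The members, the trafficking steps and the gene lists were chosen with earlier results of these data known. Full values are given for RABIF, for RAB genes past the threshold, for the highest and lowest that did not pass, and for those with unstable replicates. Other RAB genes given by library were chosen after their values were seen. Called regulators were named up to 4 per list by absolute fold change, and 1 of them is counted but not reported here. Other fits used no filter, a mean filter of 0.1, a pseudocount of 0.1, median scaling, quantile normalization, no trend, array weights, robust moderation, a replicate block, and each library left out. Figures were drawn with matplotlib 3.10.9.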

Additional observations from a re-analysis of the deposited data

How the results depend on the processing

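Of the 4 called members, RABIF, RAB6B and RAB20 passed in all 15 other fits, and RAB27B in 7 of them. The count of called members was 8 with array weights, 7 of them lower, and between 3 and 6 when 1 library was left out. Members called as higher then numbered 1 to 3, and as lower 2 to 5. Without shControl replicate 3, RAB8B and RAB28 were added, and without shBLACAT3 replicate 3, RAB3D and RAB2B were added. The 7 calls among regulators became 3 with the replicate block and 2 to 11 when 1 library was left out, the highest without shBLACAT3 replicate 3. Same-numbered libraries were weakly alike, with deviations from the group means that correlated at 0.10, 0.12 and 0.09. Pairs of unlike number ranged from -0.12 to 0.024, and each library correlated best with its own number. Deviations from a group mean cancel out within the group. The low values of unlike pairs thus follow in part from those of like pairs and add no support. Whether replicate numbers mark true pairs was not tested. With the replicate block 3 members were called, without RAB27B. Over all 10008 tested genes, 938 (9.37%) were called as reported, 1169 (11.7%) with array weights and 612 (6.1%) with the replicate block. With 1 library left out, 387 (3.87%) to 1315 (13.1%) were called. The highest count was without shBLACAT3 replicate 3, as it was for the members (6 of 44). The mark for unstable replicates took 8 members as reported, 17 at a lower ratio and 5 at a ratio of 2. Of 12 members followed through all fits, 8 kept their sign and 4 did not, none of them called. With 1 library left out, the log2 fold change of RAB19 ranged from -0.048 (without shBLACAT3 replicate 1) to 0.30, RAB31 from -0.26 to 0.45, RAB43 from -0.78 to 0.14 and RAB40C from -0.11 to 0.21, and RAB40C was at -0.059 with array weights. The cause of these shifts was not tested. Depth is unknown, so no limit on low values such as those of RAB39B can be given.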

Other observations

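The genes nearest to RABIF on its chromosome had lower means in shBLACAT3 cells where RABIF was higher. Of the 4 nearest protein-coding genes in GENCODE 29, 3 had a row. KLHL12, an adaptor of a ubiquitin ligase, had means of 19.7 ± 0.62 and 18.6 ± 0.46 FPKM in the shControl and shBLACAT3 group (SD, n = 3), ADIPOR1, an adiponectin receptor, of 59.9 ± 1.2 and 51.5 ± 3.07, and KDM5B, a histone demethylase, of 6.54 ± 0.29 and 4.31 ± 1.47. None of them passed in limma (adjusted p 0.43, 0.084 and 0.16). The shBLACAT3 libraries of each lay below its controls, but groups also did not overlap in 32.8% of all tested genes. The log2 fold change of KLHL12 was -0.08 (95% interval -0.22 to 0.06). KDM5B met the mark for unstable replicates, at 2.63, 5.37 and 4.91 FPKM in the shBLACAT3 libraries.

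Shares of RAB2B, RAB3B, RAB3D, RAB6B and RAB27B in the summed FPKM of their families did not overlap between the groups. The same held for RAB2A, RAB6A and RAB27A, which make up the rest of their sums. Single-gene levels did not overlap in 32.8% of all tested genes, and no such share was taken for families of other genes. In the RAB1, RAB4, RAB5, RAB8 and RAB11 families all shares overlapped. In the RAB3 family, RAB3B made up 45.5% to 46.0% of the summed FPKM in shControl and 60.3%, 59.7% and 88.2% in shBLACAT3 replicates 1, 2 and 3. The level of RAB3B itself was 10.3 FPKM in shControl and 10.1 FPKM in shBLACAT3 cells on average, and its share moved with the unstable row of RAB3D, which stood at 0.842 FPKM in shBLACAT3 replicate 3. In the RAB2 family, RAB2B made up 27.2% to 31.7% in shControl and 23.0% to 26.1% in shBLACAT3 libraries. RAB5A made up 48.2% to 52.1% of its family in shControl and 49.1% to 58.7% in shBLACAT3 libraries, so that these ranges overlapped. Shares within families were not tested.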
